A study of Mus musculus with 158 samples.

Results

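Of 1000 short hairpin RNAs carried by a mouse pancreatic cancer line, 21 held a larger share of their pool in lung tumours than before injection and no larger a share after the same time in culture. A hairpin's share is its reads divided by all reads of the targeting hairpins of its pool in one library. The 21 were chosen on these shares: a mean of at least 0.5% at day 0, a mean in lungs at least 2 times that, a mean in culture no higher than day 0, and under 15% in every lung library. They targeted 21 different genes and lay in 12 of the 17 pools with lung values, which together held 892 hairpins. The direction of the 21 in lungs and in culture is therefore the way they were picked and is given as a description, with no test.

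The cells were PDA530 Met, a pancreatic adenocarcinoma line taken from a liver metastasis, infected pool by pool with hairpin virus at a multiplicity of infection of 0.3 and kept in puromycin at 3 µg/ml for 4 days. Every group carried this infection and selection. The first group was the cell pellet of each pool at day 0 (58 libraries with values). The second was lung tumours taken 28 days after cells were injected into the tail vein, with 3 mice per pool and all tumours of a mouse pooled into 1 DNA sample (51 libraries). The third was cells kept in culture over the same 28 days (39 libraries). Many culture libraries were named for a pair of pools and held hairpins of both. The sources used here do not give the strain, sex or age of the mice. Injection into a vein brings cells straight to the lung, so the steps by which cells leave a primary tumour are not part of this model.

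In a pooled screen each infected cell keeps its hairpin in its genome and passes it on, so the share of a hairpin in genomic DNA stands for the share of cells that descend from the cells it entered. A hairpin is cut into a short interfering RNA that lowers one messenger RNA, and several hairpins per gene are used because a hairpin can also act on other messages or fail to act. Knockdown was not measured in these data. The hairpins are named here by their TRCN identifiers.

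Recovered reads ran from 4122499 to 13226329 per day 0 library, from 58189 to 11104545 per lung library and from 4525346 to 13728338 per culture library. Lung library 6A was the shallowest, and in lung library 6C control hairpins made up 74.4% of the reads and the pool's own hairpins 25.5%. Reads of hairpins from other pools reached 18.7% of the reads of lung library 17A and 15.3% of culture library 16/17A, but at most 3.03% of a day 0 library. Lung libraries 10C and 16D were left out: of their reads, only 0.0344% and 0.677% came from hairpins of their own pool, while control hairpins made up 99.2% of 10C and hairpins of other pools 74.0% of 16D. Fewer than 3 lung libraries were left for 6 of the 21: 4 had 2 and 2 had 1. The fewest reads behind a share of these 21 were 632 in lungs, 15179 at day 0 and 1959 in culture, so counting error was small beside the spread between mice. The PCR carried no molecular identifiers, and intervals below cover counting error only. The labels do not say whether the lettered day 0 libraries came from separate infections, so p-values measure the spread between these samples, which may be partly technical.

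Across the 21 the median share was 1.67% at day 0, 5.88% in lungs and 0.937% in culture. The ratio of mean lung to mean day 0 share had a median of 2.45 and ran from 2.02 (Aff2) to 5.36 (Tmem45b). Over all 892 hairpins with lung values the same ratio had a median of 0.683, and 9.98% of them reached 2 times. The ratio of culture to day 0 had a median of 0.702 among the 21 and ran from 0.125 (Pak1ip1) to 0.979 (Tfpi2), beside 0.676 over the 892. Since the rule admitted no ratio above 1, these medians cannot be compared. In each of the 21, every lung library lay above every day 0 library and above every culture library. Of all 892 hairpins, 16.1% lay above every day 0 library and 20.5% above every culture library, and since the rule used both contrasts nothing is read from these counts. Culture lay below every day 0 library in 12 of the 21 and overlapped day 0 in 9.

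The first set of genes acts in growth signalling. Nras encodes a small GTPase of the Ras family that passes receptor signals to the mitogen-activated kinases. Its hairpin TRCN0000034390 (pool 6) took 1.03, 0.958 and 0.860% of the pool at day 0, 4.27, 2.42 and 3.09% in the lungs of 3 mice, and 0.489, 0.579 and 0.539% in culture. The lowest mouse stood at more than 2 times the highest day 0 library, and the culture libraries lay close together below day 0. The highest of the lung values came from the shallow library 6A, where it rested on 1730 reads. Without the lung libraries lettered C, 6C among them, the 3 hairpins of pool 6 were still chosen.

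Dusp5 encodes a nuclear phosphatase that switches off the kinase ERK, and its hairpin TRCN0000080891 (pool 10) was among the common ones. Its share was 4.75, 4.58 and 4.32% at day 0 and 10.7 and 8.58% in the 2 lung libraries used. In culture it was 3.75, 3.01 and 6.17% in the libraries named for pools 9 and 10 and 2.22, 2.91 and 2.18% in those named for pools 10 and 11. The 6.17% of library 9/10C lay above every day 0 library, so culture was split for this hairpin while lungs were not.

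Sfn encodes 14-3-3 sigma, an adaptor that binds phosphorylated proteins and is induced by p53. In the same pool, hairpin TRCN0000112151 took 1.07, 1.19 and 1.32% at day 0 and 2.18 and 2.70% in lungs. Its 6 culture libraries lay between 0.755 and 0.944%, all under day 0 and close together. With a lung to day 0 ratio of 2.05 it stood just inside the rule. Had lung library 10C been kept, where the Dusp5 and Sfn hairpins made up 0.565 and 0.257% of only 1946 reads of the pool, neither would have been chosen.

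Akap9 encodes a scaffold that holds protein kinase A at the Golgi and the centrosome. Its hairpin TRCN0000362770 (pool 14) made up 2.12, 1.57 and 1.72% at day 0, 11.4, 5.23 and 6.29% in lungs and 0.548, 0.408 and 0.550% in culture. All mice lay well above day 0, and the mouse of library 14A stood apart at about the sum of the other pair. The mean lung share was 15.2 times the mean culture share.

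The second set acts on genes and genomes. Dicer1 encodes the ribonuclease that cuts microRNA precursors and also short hairpins of this kind. Hairpin TRCN0000071318 (pool 6) was rare at day 0, with 0.511, 0.597 and 0.452%, and took 1.56, 1.42 and 0.771% in lungs and 0.110, 0.245 and 0.185% in culture. Its mean day 0 share of 0.520% was the lowest of the 21, and the mice differed from each other by 2.02 times. Every culture library was lower than every day 0 library.

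Pak1ip1 encodes a protein that restrains the kinase Pak1 and takes part in making ribosomes. Its hairpin TRCN0000009759 (pool 12) had the lowest ratio of culture to day 0 among the 21, with 0.638, 0.557 and 0.734% at day 0 and 0.0414, 0.0822 and 0.118% in culture. In lungs it took 0.881, 1.40 and 1.77%. The lowest mouse was little above day 0, but all mice were above every culture library, and the mean in lungs was 16.8 times that in culture.

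Klf6 encodes a zinc finger transcription factor. Hairpin TRCN0000234196 (pool 16) held 1.67, 1.43 and 2.01% at day 0 and 7.86% in the single lung library used, 16E. In culture it spread from 0.431% in library 16/17A to 2.55% in library 16E, with 0.824, 1.57 and 1.91% between. The lung value has no replicate, and culture overlapped day 0. In the lung library 16D that was left out, it made up 3.53% of the 42538 reads of pool 16.

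Rif1 encodes a protein that sets replication timing and steers the repair of broken DNA. Its hairpin TRCN0000071341 (pool 9) took 1.14, 1.00 and 1.07% at day 0, 2.36 and 3.67% in lungs and between 0.276 and 0.901% in 7 culture libraries, of which 1 repeats another. Lungs and culture lay on opposite sides of day 0 in every library.

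Aff2 encodes a member of a family of transcription elongation factors. Hairpin TRCN0000103531 (pool 2) was already common, with 6.63, 5.93 and 5.45% at day 0, and became the most abundant of the 52 hairpins of its pool in lungs at 13.9, 10.9 and 11.6%. Culture lay between 4.55 and 5.41%. Its ratio of 2.02 was the lowest of the 21, and the nearest hairpin outside the rule was one to Atp10a at 2.00, just short of 2 before rounding.

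Ftsjd2, now named Cmtr1, encodes an enzyme that methylates the cap of messenger RNA. Its hairpin TRCN0000264861 (pool 19) took 4.43, 3.77 and 4.60% at day 0, 9.61, 10.5 and 7.50% in lungs, and 2.09, 3.44, 3.37 and 4.49% in culture. The mice agreed within a factor of less than 1.5, and only the culture library 19D reached the day 0 range.

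The third set serves the cytoskeleton, transport and membranes. Coro1c encodes an actin-binding coronin found at the leading edge of moving cells. Its hairpin TRCN0000313282 (pool 18) held 1.5, 1.65 and 1.31% at day 0, 4.86, 6.61 and 3.86% in lungs and 0.158, 0.229 and 0.414% in culture. The mean lung share was 19.1 times the mean culture share, the widest gap of the 21, and the groups did not overlap.

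Dctn4 encodes a subunit of dynactin, which links cargo to the motor dynein. Hairpin TRCN0000295652 (pool 17) took 1.56, 1.30 and 1.74% at day 0, 4.41, 5.71 and 4.58% in lungs and 0.643, 0.834 and 1.19% in culture. The 4.41% came from lung library 17A and the 0.643% from culture library 16/17A, the libraries richest in reads of other pools. The remaining mice were higher still, at 4.58 and 5.71%.

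Kcnk1 encodes a potassium channel. Its hairpin TRCN0000069900 (pool 6) was at place 3 of the 52 hairpins of its pool at day 0 and at place 1 in lungs, with 5.13, 5.28 and 4.82% at day 0 and 12.2, 9.07 and 12.9% in lungs. In culture it was at place 10, with 3.27, 3.35 and 2.63%. All the mice were far from all other libraries.

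Slc37a2 encodes a sugar phosphate exchanger of the endoplasmic reticulum. Hairpin TRCN0000070098 (pool 9) took 5.47, 5.78 and 5.76% at day 0, 10.8 and 14.7% in lungs and between 4.32 and 5.97% in 7 culture libraries. The 14.7% is the lung value nearest to the maximum that the rule allows. Culture overlapped day 0 for this hairpin.

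Tmem45b encodes a membrane protein. Its hairpin TRCN0000379226 (pool 18) had the largest ratio, from 0.947, 1.26 and 0.853% at day 0 to 3.60, 9.84 and 2.93% in lungs. The mice spread by 3.36 times, with library 18B apart, yet the lowest of them was still above 2 times the highest day 0 library. Culture, at 0.717, 0.970 and 1.12%, overlapped day 0.

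The last set acts at the cell surface and matrix or in the handling of proteins. Col11a1 encodes a chain of a fibrillar collagen. Hairpin TRCN0000366714 (pool 14) took 2.78, 2.50 and 2.70% at day 0, 1.43, 1.40 and 1.46% in culture, and 13.8, 2.95 and 2.84% in lungs. The first of the lung values, from library 14A, made its mean reach the rule, and without the lung libraries lettered A this hairpin was no longer chosen. The other mice were barely above day 0.

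Tfpi2 encodes a secreted inhibitor of serine proteases. Its hairpin TRCN0000080032 (pool 8) gave the closest agreement, with 5.97, 5.76 and 6.02% at day 0 and a technical repeat at 5.46%, and 13.0, 11.7 and 12.3% in lungs with a repeat at 12.7%. Culture, at 5.67, 5.36 and 6.60% with a repeat at 5.11%, overlapped day 0.

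Pcsk6 encodes a protease that activates secreted precursor proteins. Hairpin TRCN0000334330 (pool 16) took 0.509, 0.512 and 0.661% at day 0, 2.25% in the single lung library used and between 0.362 and 0.575% in culture. As for Klf6 in the same pool, the lung value has no replicate, and in lung library 16D the Pcsk6 hairpin had 20 reads (0.0470%), below day 0.

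Pvrl2, now named Nectin2, encodes an adhesion molecule of cell junctions. Its hairpin TRCN0000112530 (pool 7) took 3.29, 3.49 and 3.89% at day 0, 9.66, 6.27 and 8.36% in lungs and 2.78, 3.63 and 3.35% in culture. Lungs were clear of both other groups, which overlapped.

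Tmtc2 encodes an enzyme of the endoplasmic reticulum in the family that adds mannose to cadherins. Hairpin TRCN0000175964 (pool 2) took 1.38, 1.41 and 1.26% at day 0, 3.66, 4.07 and 4.63% in lungs, and between 0.528 and 0.998% in culture. The groups did not overlap in any pair.

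Fbxo22 encodes a substrate receptor of a ubiquitin ligase. Its hairpin TRCN0000194517 (pool 12) was at place 29 of 53 at day 0 and at place 2 in lungs, with 1.59, 1.61 and 1.80% at day 0 and 4.10, 7.24 and 6.29% in lungs. Culture gave 0.917, 1.59 and 1.36% and touched the day 0 range.

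Where a pool held more than 1 of these hairpins, their shares can be added. The sums are shares of the pool's targeting reads, without control reads, and not of all cells of a tumour. They are given for pools 6, 14, 18 and 2, while pools 9, 10, 12 and 16, with 2 such hairpins each, are not shown. In pool 6, Nras, Kcnk1 and Dicer1 summed to 6.55% ± 0.369 at day 0, 15.9% ± 2.65 in lungs and 3.80% ± 0.415 in culture (mean and SD, n = 3 libraries each). In pool 14, Akap9 and Col11a1 summed to 4.46% ± 0.416 at day 0 and to 14.2% ± 9.57 in lungs (n = 3 each), where library 14A alone gave 25.2%. In pool 18, Coro1c and Tmem45b went from 2.51% ± 0.376 to 10.6% ± 5.16 (n = 3 each). In pool 2, Aff2 and Tmtc2 went from 7.36% ± 0.653 to 16.2% ± 1.32 (n = 3 each). Mice of pools 6, 14 and 18 spread far more than the pellets of these pools did, whereas in pool 2 the spread grew only in step with the mean. Within a lung library the shares of a pool add up to a fixed total, so 2 hairpins of a pool are not independent of each other.

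A share depends on what the rest of the pool does, so the 21 are also given against other references. The same libraries chose the 21, so these counts describe them and support nothing. Lungs were higher than day 0 for 21 of 21 relative to the reads of the control hairpins (median log2 ratio 1.64, range 0.22 to 2.92), to the total of the library (median 1.25, range 0.66 to 2.33) and on the deposited scale (median 1.33, range 0.45 to 2.43). Of all 892 hairpins, 43.3, 32.7 and 36.1% were higher in lungs on these 3 scales. Culture was lower than day 0 for 20 of 21 relative to the control reads, with Fbxo22 at a log2 ratio of 0.08. It was lower for 21 of 21 relative to the library total and for 19 of 21 on the deposited scale, where Pvrl2 and Slc37a2 were higher, beside 77.5, 87.4 and 74.7% of the 892. Culture libraries named for a pair of pools hold the controls and reads of both, and the part of this in the culture values was not tested.

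The screen held 54 other hairpins to the same 21 genes, of which 52 had lung values and 2 to Tmtc2 did not. These did not enter the group, so the choice leans against their rising, but their own changes were not otherwise used. Each was tested with limma on log2 CPM within its pool, where CPM is reads per 1000000 of the pool's own targeting reads after scaling by TMM, which centres each library on its typical hairpins. A call is an adjusted p (Benjamini-Hochberg over all hairpins tested) under 0.05. The fold changes below are on the log2(CPM + 1) scale.

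Between lungs and day 0, limma called 7 of 46 testable other hairpins higher (15.2%) and 8 lower (17.4%), against a background over all hairpins of 16.4% higher and 21% lower. Outside the 21, which were chosen for rising, the background was 14.5% higher and 21.5% lower. The median log2 change of the 46 was 0.06, against -0.13 for all hairpins tested. The share called was near the background in both directions. Scaling by the pool total gave 6 higher and 15 lower, and the deposited scale 5 higher and 10 lower. Leaving out the day 0 libraries lettered A or C left 4 higher, and leaving out any 1 of day 0 A, B or C left 3 lower. Leaving out the lung libraries lettered A, B or C left 1 lung library in pool 9, pool 10 or both, so the counts from these runs are not given. By size alone, 8 of the 52 (15.4%) had at least 2 times their day 0 share in lungs, beside 7.81% of the 871 hairpins with lung values outside the 21; this difference was not tested. These 8 lay in 6 genes.

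Dusp5 had 2 other hairpins called higher, both in pool 8. TRCN0000080889 (pool 8) took 0.649, 0.683 and 0.621% at day 0 with a repeat at 0.814%, and 6.82, 6.86 and 2.15% in lungs with a repeat at 6.85%. It rose by 2.97 ± 0.43 (SE) on the log2 scale over day 0 (limma adjusted p = 0.00151) and by 2.02 ± 0.41 over culture (limma adjusted p = 0.00321). TRCN0000080888 of the same pool took 0.801, 0.819 and 0.731% at day 0 and 1.92, 2.62 and 1.35% in lungs. It rose by 1.47 ± 0.26 over day 0 (limma adjusted p = 0.00334) and by 1.04 ± 0.32 over culture (limma adjusted p = 0.0266). Both were also called higher in culture than at day 0, TRCN0000080888 in only 13 of 18 alternatives. The log2 change in culture was 1.02 ± 0.14 for TRCN0000080889 (limma adjusted p = 0.000297) and 0.49 ± 0.17 for TRCN0000080888 (limma adjusted p = 0.039), which turned to -0.045 on the deposited scale (limma adjusted p = 0.826). The fourth Dusp5 hairpin, TRCN0000080890, went the other way, with 0.581, 0.638 and 0.533% at day 0 and 0.247, 0.0630 and 0.0325% in lungs (log2 change -2.68 ± 0.72, limma adjusted p = 0.0215). That fall did not pass with edgeR's quasi-likelihood test (adjusted p = 0.0669). The 3 other Dusp5 hairpins, all in pool 8, thus gave 2 calls higher in lungs and 1 lower.

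The 3 other Sfn hairpins had ratios of mean lung to mean day 0 share above 1, and 2 of them were called higher. TRCN0000436998 (pool 18) took 0.357, 0.472 and 0.380% at day 0 and 0.837, 1.05 and 1.21% in lungs, with no overlap. It rose by 1.63 ± 0.33 over day 0 (limma adjusted p = 0.00781) and by 1.21 ± 0.34 over culture (limma adjusted p = 0.0297). TRCN0000112150 (pool 10) was called higher over day 0 by 0.93 ± 0.20 (limma adjusted p = 0.0201), though its lung shares of 1.29 and 1.65% overlapped day 0 at 1.01, 1.17 and 1.33%. By the pool total this call was lost (log2 change 0.33, limma adjusted p = 0.238). In culture this hairpin rose too, to between 1.26 and 2.94% (log2 change 1.20 ± 0.21, limma adjusted p = 0.000484), but on the deposited scale that change turned to -0.49 and was not called (limma adjusted p = 0.18). TRCN0000437399 (pool 18) took 0.445, 0.550 and 0.393% at day 0 and 0.817, 2.22 and 0.395% in lungs and did not pass the test (limma adjusted p = 0.152). Its mean day 0 share of 0.463% was the nearest below the minimum among hairpins that met the other conditions of the rule.

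The second Tmem45b hairpin of pool 18, TRCN0000376967, took 0.596, 0.804 and 0.572% at day 0 and 1.60, 3.14 and 1.21% in lungs. It rose by 1.77 ± 0.40 over day 0 (limma adjusted p = 0.0134), and did not pass against culture (adjusted p = 0.0796). Both Tmem45b hairpins of this pool were highest in the mouse of library 18B, and day 0 library 18B was also the highest of its group for both. Another hairpin, TRCN0000124225 (pool 9), was lower in lungs than in culture by limma (log2 change -0.86 ± 0.28, adjusted p = 0.0455), resting on 2 lung libraries at 2.19 and 0.539%. That difference did not pass with edgeR's quasi-likelihood test (adjusted p = 0.0912).

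A second Rif1 hairpin in pool 9 was also higher in lungs and lower in culture, with a lung share under 2 times that of day 0. TRCN0000071339 took 5.56, 6.10 and 5.93% at day 0 and 8.31 and 9.80% in lungs, and between 1.01 and 2.53% in culture. limma gave a rise of 1.61 ± 0.40 over day 0 (adjusted p = 0.0393) and of 2.80 ± 0.35 over culture (adjusted p = 0.000227). The size of the rise over day 0 rests on the scaling: by the pool total it was 0.62 (limma adjusted p = 0.0151), close to the change in share, and without the lung libraries lettered C it was 0.99. The call over day 0 was lost without the day 0 libraries lettered A, B or C (limma adjusted p = 0.131 to 0.15) and with the letter as a block (adjusted p = 0.226). The third Rif1 hairpin, TRCN0000071340, had a lung to day 0 ratio of 0.136. Its 2 lung libraries were far apart, at 0.005 and 0.353%, and limma did not call it against day 0 (adjusted p = 0.13).

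Kcnk1 was split. TRCN0000069899, a rare hairpin of pool 6, went from 0.0661, 0.0739 and 0.0681% at day 0 to 0.269, 0.414 and 0.207% in lungs, a rise of 2.64 ± 0.48 (limma adjusted p = 0.00293). Over culture it rose by 1.97 ± 0.66 (limma adjusted p = 0.0229). On the deposited scale the changes of this hairpin were 1.34 over day 0 and 1.53 over culture, and limma called neither (adjusted p = 0.242 and 0.259). TRCN0000069898 of the same pool fell from 2.57, 2.62 and 2.76% to 1.02, 1.04 and 1.19% (log2 change -0.68 ± 0.21, limma adjusted p = 0.0319), with no overlap.

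The Dicer1 hairpins of pool 6 parted. While TRCN0000071318 had a larger share in lungs, TRCN0000071321 went from 0.888, 0.947 and 0.798% at day 0 to 0.0962, 0.0174 and 0.0203% in the same lung libraries. limma gave a fall of -4.15 ± 0.62 against day 0 (adjusted p = 0.00122) and of -2.92 ± 0.70 against culture (adjusted p = 0.00212). In culture both were below day 0. The third Dicer1 hairpin of the pool, TRCN0000071322, took 0.126, 0.122 and 0.112% at day 0, 0.195, 0.0490 and 0.246% in lungs and 0.115, 0.170 and 0.0688% in culture, and did not pass in either comparison with day 0.

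In 5 further genes another hairpin fell in lungs. TRCN0000103532 to Aff2 (pool 2) went from 1.62, 1.60 and 1.96% at day 0 to 0.608, 0.712 and 0.687% in lungs (log2 change -1.0 ± 0.22, limma adjusted p = 0.00855). TRCN0000305046 to Slc37a2 (pool 18) went from 2.91, 3.10 and 2.56% to 0.756, 1.20 and 0.589% (log2 change -1.53 ± 0.32, limma adjusted p = 0.00907). TRCN0000313283 to Coro1c, in the same pool as the one that was chosen, fell by 0.66 ± 0.16 on the log2 scale (limma adjusted p = 0.0187). None of these overlapped between day 0 and lungs. TRCN0000295651 to Dctn4 (pool 17) went from 4.93, 5.26 and 4.85% to 0.931, 1.32 and 2.70% (log2 change -1.09 ± 0.33, limma adjusted p = 0.0381). TRCN0000193737 to Fbxo22 (pool 12) went from 1.91, 1.83 and 1.86% to 0.505, 0.152 and 1.09%, with mice far apart (log2 change -1.89 ± 0.61, limma adjusted p = 0.038). Its change was -1.12 without the lung libraries lettered B and -2.48 without those lettered C. The Fbxo22 call did not pass with edgeR's quasi-likelihood test (adjusted p = 0.0842). With Dusp5, Kcnk1 and Dicer1, 8 genes had another hairpin called lower, 5 had one called higher, and Dusp5 and Kcnk1 had both.

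Of these 15 calls between lungs and day 0, 5 held in all 18 alternatives to the limma settings: TRCN0000071321 to Dicer1, TRCN0000080889 and TRCN0000080888 to Dusp5, TRCN0000103532 to Aff2 and TRCN0000305046 to Slc37a2. Each of 3 others was lost in 1 alternative. TRCN0000069899 to Kcnk1 was lost on the deposited scale, TRCN0000436998 to Sfn without the day 0 libraries lettered A (limma adjusted p = 0.054) and TRCN0000376967 to Tmem45b without those lettered C (limma adjusted p = 0.0565). The remaining 7 were each lost when the day 0 libraries lettered A, B or C were left out. Among these, the rise of TRCN0000071339 to Rif1 and the falls of TRCN0000313283 to Coro1c and TRCN0000069898 to Kcnk1 held in 14 of 18. The falls of TRCN0000080890 to Dusp5, TRCN0000193737 to Fbxo22 and TRCN0000295651 to Dctn4 held in 13. The rise of TRCN0000112150 to Sfn held in 11. The adjusted p from limma reached 0.0868 for the Coro1c fall, 0.165 for Kcnk1, 0.172 for Dctn4, 0.105 for Fbxo22 and 0.0759 for Dusp5. Each pool was fitted alone, so an alternative that touched only other pools left a hairpin's data unchanged and could move only its adjusted p. The counts out of 18 therefore overstate how often a call was put to a test. Those of TRCN0000071339 to Rif1 and TRCN0000112150 to Sfn include runs with 1 lung library left in the pool.

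Against culture, limma called 6 of 46 other hairpins higher in lungs and 6 lower (13.0% each), beside 13.3% and 14.4% of all hairpins tested. The deposited scale gave 10 higher and 4 lower. Leaving out culture libraries lettered A, B or C left 3 higher in each case. Besides those named above, TRCN0000009760 to Pak1ip1 (pool 12) was higher by 1.24 ± 0.40 (limma adjusted p = 0.039), with 0.697, 0.605 and 1.13% in lungs and 0.365, 0.254 and 0.276% in culture. Like the Pak1ip1 hairpin that was chosen, it was lower in culture than at day 0, where it held 1.05, 1.10 and 1.30% (log2 change -1.45 ± 0.26, limma adjusted p = 8.51e-05), but it did not pass against day 0 in lungs (log2 change -0.35 ± 0.35, limma adjusted p = 0.44).

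Lower in lungs than in culture were TRCN0000090985 to Coro1c (pool 8), by 1.69 ± 0.18 on the log2 scale (limma adjusted p = 1.03e-05), and TRCN0000284502 to Tfpi2 (pool 15), where limma gave -2.31 ± 0.35 (adjusted p = 0.00126). The Coro1c hairpin held 1.31, 1.38 and 1.42% at day 0, 1.76, 2.10 and 1.62% in lungs and 6.16, 6.42 and 5.72% in culture, and was called higher in culture than at day 0 (log2 change 2.34 ± 0.09, limma adjusted p = 9.21e-08) but not in lungs (adjusted p = 0.0746), where edgeR's quasi-likelihood test did call it (adjusted p = 0.0499). The Tfpi2 hairpin held 6.86, 5.32 and 4.34% at day 0, 1.52, 2.63 and 1.31% in lungs and between 7.34 and 11.1% in culture. It rose in culture (log2 change 1.48 ± 0.34, limma adjusted p = 0.00445), by 0.87 when scaled by the pool total and still called. Between lungs and day 0 its shares did not overlap, yet the change of -0.65 ± 0.30 did not pass (limma adjusted p = 0.127). It was called in 3 of 18 alternatives, and by the pool total it was -1.64 (limma adjusted p = 0.00478). TRCN0000103533 to Aff2 was lower than in culture by 0.77 ± 0.11 (limma adjusted p = 0.00362) and TRCN0000103532 by 0.48 ± 0.14 (limma adjusted p = 0.0469), and both turned to the higher side on the deposited scale.

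Of these 12 calls between lungs and culture, 5 held in all 19 alternatives, namely those of TRCN0000080889 to Dusp5, TRCN0000071339 to Rif1, TRCN0000071321 to Dicer1, TRCN0000090985 to Coro1c and TRCN0000284502 to Tfpi2. TRCN0000103533 to Aff2 was lost only on the deposited scale. The calls of TRCN0000069899 to Kcnk1, TRCN0000080888 to Dusp5 and TRCN0000009760 to Pak1ip1 held in 15 of 19, with limma adjusted p up to 0.259, 0.13 and 0.175. TRCN0000436998 to Sfn held in 14 (limma adjusted p up to 0.14). TRCN0000124225 to Tmem45b held in 11 and was -0.12 without the lung libraries lettered C, which left 1 lung library in its pool. TRCN0000103532 to Aff2 held in 9 (limma adjusted p up to 0.235). Each of the 6 that lost more than 1 was lost without the culture libraries of at least 1 letter. These counts too include alternatives that touched only other pools and, for the Rif1 and Tmem45b hairpins, runs with 1 lung library.

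In culture, limma called 20 of 53 other hairpins higher than day 0 (37.7%) and 13 lower (24.5%), beside 28.8% and 31.9% of all hairpins tested. The split turned with the scaling, to 13 higher and 19 lower by the pool total and to 10 higher and 20 lower on the deposited scale. Relative to TMM, the pool total moved the median log2 change of all hairpins from -0.10 to -0.64 for culture and from -0.13 to -0.68 for lungs against day 0. For lungs against day 0 it also moved changes of other hairpins, to -4.75 for TRCN0000071321 to Dicer1, 2.04 and -1.29 for TRCN0000069899 and TRCN0000069898 to Kcnk1, and -1.75 for TRCN0000295651 to Dctn4, and under this scaling limma called these 4. On the deposited scale they were -5.46, 1.34, -1.99 and -1.79. Directions of small changes are therefore relative to the typical hairpin of a pool.

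Pairs of hairpins singled out after their values were seen show how far hairpins of these genes can part. An Nras hairpin of pool 16, TRCN0000348697, took 7.35, 7.44 and 7.20% at day 0 and between 24.3 and 36.3% in culture, a rise of 2.77 ± 0.22 on the log2 scale (limma adjusted p = 6.18e-07) that was 1.99 by the pool total and still called. The Nras hairpin of pool 6 was lower in culture than at day 0. In lung library 16E the same TRCN0000348697 stood at 2.91%. The third Nras hairpin, TRCN0000351826 of the same pool, went the other way there, at 13.9%. That was above its day 0 libraries (8.66 to 8.94%) and its culture libraries (7.34 to 10.2%), and has no replicate. A second Col11a1 hairpin in pool 14, TRCN0000366646, took 0.794, 1.43 and 1.13% at day 0 and 50.6% of lung library 14A, the mouse in which the other Col11a1 hairpin reached 13.8%, but 0.328 and 0.345% in the other mice. limma did not call it (adjusted p = 0.44).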

How the data were processed

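Hairpins were amplified from genomic DNA by a 2-step PCR, per the labels' protocols, and BWA 0.5.9 is named in the submitters' processing notes. The deposited tables give a normalised read signal per hairpin made by the authors; how they counted and scaled is not given in the sources used here. The smallest signal of a library was treated as 1 read and the others divided by it; this gave whole reads for 27241 of 27241 values (100%, tolerance 0.01 reads). A hairpin not listed for a library was given 0 reads. Of 158 samples, 148 had values. Lung libraries 10C and 16D were left out.

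The members, lists and tests were chosen with earlier results of these data known. Shares used recovered reads, and the deposited values gave the same 21 members. Other hairpins of the members' genes were fitted per pool with limma 3.58.1 (R 4.3.3, trend and robust) on log2(CPM + 1), with TMM factors of edgeR 4.0.16, repeat libraries summed, a mean of at least 10 reads and at least 2 libraries per group, so pool 16 had no lung test. The design named edgeR for counts and limma for other units; edgeR on recovered reads and DESeq2 1.42.0 size factors were alternatives, and the fit was tested on simulated data. Named were all 21 members and every other hairpin of their genes called in lungs. Current gene names came from RefSeq (GRCm38.p6), by accession for 20 of 21 members. The files hold no hairpin sequence used here.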

Additional observations from a re-analysis of the deposited data

Results flagged for a closer look

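Among 11 groups of 4 to 10 culture libraries examined for a library far from the rest, 1 was found: the Tfpi2 hairpin TRCN0000284502 took 7.34% in culture library 14/15B of pool 15, where the nearest of the other 3 was at 10.8%. The gap was 0.920 of the group's range, past the 95% limit of Dixon's test for 4 libraries, and chance alone marks about 1 in 20 groups.

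The lung libraries left out of the shares held these hairpins as well. Of the reads of pool 10 in lung library 16D (4457119 reads), the Dusp5 hairpin TRCN0000080891 made up 5.86% (95% Wilson interval 5.84 to 5.88) and the Sfn hairpin TRCN0000112151 1.52% (1.51 to 1.53). Both lay above their highest day 0 library, at 4.75 and 1.32%, and below their mean in lungs, at 9.62 and 2.44%. Among the pool 10 reads in several day 0 and culture libraries of that lane, however, both were higher than in lung library 16D. Dusp5 made up 6.56% in day 0 library 16D, 6.67 to 7.08% in day 0 libraries of pool 17 and 7.30% in culture library 16/17A, and Sfn 1.65% in day 0 library 16D and 2.00% in culture library 16/17A. In their own lung library 10C, with 1946 reads of pool 10, they stood at 0.565 and 0.257%. The Klf6 hairpin TRCN0000234196 made up 3.53% (3.36 to 3.71) of 42538 reads of pool 16 in its own lung library 16D and 8.90% (8.38 to 9.44) of 11102 reads of pool 16 in lung library 10C, above its highest day 0 library at 2.01%. The Pcsk6 hairpin TRCN0000334330 made up 5.61% (5.20 to 6.06) in library 10C, where the highest day 0 library was 0.661%, but 0.0470%, 20 reads, in its own 16D. Shares above their own day 0 also occurred outside lungs: among the pool 16 reads of day 0 library 15D, Klf6 made up 5.75% and Pcsk6 3.82%, and in culture library 15D Klf6 made up 7.03%. Where the pool 10 and pool 16 reads in these libraries came from was not tested.

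Libraries of pool 17 held reads of hairpins assigned to other pools, which did not enter the choice of the 21. Per 1000000 reads of pool 17, the Coro1c hairpin TRCN0000313282 of pool 18 gave 169, 195 and 270 at day 0, 6724, 7707 and 979 in lungs, and 70.9, 52.6 and 60.4 in culture. Its lung mean of 5137 was 24.3 times the day 0 mean, and the groups did not overlap. This is not particular to Coro1c: 5 hairpins of pool 18 had at least 100 reads in each of these day 0 libraries, their lung means were 24.3 to 62.0 times day 0, and 4 of the 5 had every lung library above day 0. The Klf6 hairpin of pool 16 gave 116, 309 and 155 at day 0 and 556, 15423 and 1858 in lungs, a mean of 5945. Among the pool 16 reads of these libraries it was 97.2% in lung library 17B, 95.7% in 17C and 27.8% in 17A, and at day 0 it was 43.7% in 17A, 3.25% in 17B and 55.0% in 17C. The Tmem45b hairpin TRCN0000379226 of pool 18 gave 34.0, 85.2 and 67.8 at day 0, 5423, 421 and 128 in lungs, a mean of 1990, and 92.5, 54.7 and 108 in culture. Its highest value came from lung library 17A, the one with 18.7% reads of other pools. The Dusp5 hairpin of pool 10 gave 53.0, 120 and 77.4 at day 0, 20046, 718 and 1.78 in lungs, and 28328, 207 and 4.10 in culture, with no order between the groups.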

How the results depend on the processing

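The number of members moved with the thresholds: 44 at 1.5 times day 0, 9 at 3 times and 13 with a maximum of 10% in a lung library, against 21. With libraries 10C and 16D there were 22, without Dusp5 and Sfn. With control reads in the denominator there were 24, without Dicer1, Kcnk1 and Pcsk6, and by the median over libraries 22, without Aff2, Col11a1 and Tmem45b. Leaving out the libraries of 1 letter gave 18 to 23. Without a day 0 letter Sfn (A), Dicer1, Pak1ip1 and Tmem45b (B) or Aff2 (C) dropped out. Without a lung letter Aff2, Col11a1 and Dusp5 (A), Sfn (B), Pak1ip1 and Slc37a2 (C) or Klf6 and Pcsk6 (E, their only lung library) did. Klf6, Tfpi2 and Tmem45b dropped out without the culture libraries lettered A. Other hairpins called lower in lungs than at day 0 numbered 8, and 15 by the pool total. Those called higher in culture numbered 20, but 13 by the pool total and 10 on the deposited scale, where 20 rather than 13 were lower. Lungs over culture gave 6 higher, and 10 on the deposited scale. Without 1 letter the counts ran from 4 to 12 higher and 3 to 11 lower for lungs against day 0, 18 to 23 and 9 to 14 for culture against day 0, and 3 to 6 and 4 to 8 for lungs against culture. Of 658 values of the 34 single calls whose sizes are given, 576 kept the call, 78 kept only the direction and 4 reversed, all on the deposited scale: in lungs against culture, the Aff2 hairpins TRCN0000103533 and TRCN0000103532 at log2 0.21 and 0.49, and in culture against day 0, TRCN0000112150 to Sfn at -0.49 and TRCN0000080888 to Dusp5 at -0.045. The cause was not tested. Part of the 576 came from alternatives that left the hairpin's own pool unchanged, where the call could hardly be lost. Leaving out lung libraries 6A and 17A and culture library 16/17A, or using only culture libraries from the lane of day 0, was chosen after seeing the data and kept each count within 1.5 times.

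Library letters are shared between groups. The main fit did not pair the samples by letter, because not every same-letter pair deviated together. Of same-letter pairs of lungs and day 0, 20 of 46 had deviations correlated above 0.1 (mean r 0.06), with 30 of 59 for culture and day 0 and 23 of 50 for lungs and culture. Different-letter pairs passed 0.1 less often in each comparison, in 30 of 92, 37 of 130 and 33 of 106, so whether letters pair the samples is not settled. With the letter as a replicate block, lungs against day 0 gave 5 higher and 5 lower, lungs against culture 5 and 4, and culture against day 0 20 and 13. The block lost the day 0 calls of TRCN0000071339 to Rif1, TRCN0000313283 to Coro1c, TRCN0000069898 to Kcnk1, TRCN0000295651 to Dctn4 and TRCN0000112150 to Sfn. Against culture it lost TRCN0000080888 to Dusp5, TRCN0000436998 to Sfn, TRCN0000124225 to Tmem45b and TRCN0000103532 to Aff2.

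Depth limits little beyond rare hairpins in library 6A. With 1 to 3 mice per pool, the spread between mice sets the precision.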

Other observations

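Of 196 combinations of a hairpin with a pool it was not assigned to, with at least 100 reads in every day 0 library of that pool and at least 2 lung libraries, 8 (4.08%) had every lung library above every day 0 library. Only 8 of the 21 hairpins had such a combination, which made 10 of the 196. Of these 10, 3 had every lung library above every day 0 library, all in libraries of pool 17. Over all hairpins, 5 of the 8 combinations with that order lay in libraries of pool 17. This comparison was chosen after the data were seen, and the combinations share libraries.

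In lung libraries 10A and 10B, hairpins assigned to pool 9 parted between mice. The Rif1 hairpin TRCN0000071341 had 5328 reads in 10A and 11 in 10B, while the Slc37a2 hairpin TRCN0000070098 had 568 and 5215. In the day 0 libraries of pool 10 they had 402, 559 and 752 reads and 637, 466 and 574 reads. The Dctn4 hairpin TRCN0000295652 of pool 17 had 1953, 374 and 2 reads in the lung libraries of pool 18, after 191, 166 and 166 at day 0. The Dusp5 hairpin TRCN0000080891 of pool 10 made up 63.6, 53.9 and 41.1% of the pool 10 reads in day 0 libraries 9A, 9B and 9C, where its level per 1000000 reads of pool 9 was 278, 198 and 224, and 310 and 153 in lungs.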
